A study of Mus musculus with 11 samples.

Results

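The striated muscle miRs are a small set of microRNAs (miRs) known for their high level in heart and skeletal muscle: miR-1, miR-133a, miR-133b, miR-206, miR-208, miR-208b and miR-499. They were taken by name from the deposited table of PCR cycles, guide strands only, and all 7 had an assay among the 517 miR assays of the series. Of these 7, 4 (miR-1, miR-133a, miR-133b and miR-206) were detected in every sample and 3 (miR-208, miR-208b and miR-499) in 1 to 4 of the 11 samples.

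The measurements come from whole aorta of 11 female apoE-/- mice, with 1 mouse per array. All 3 groups, controls included, lack apolipoprotein E, a carrier of blood lipids whose loss makes mice prone to atherosclerosis. The 4 control mice ate a regular diet and their aortas are labelled as non-atherosclerotic. Another 4 mice had 3 months and 3 mice had 10 months of a high fat diet, with 21% crude fat, 19.5% casein and 0.15% cholesterol, and their aortas are labelled as atherosclerotic. Every mouse is labelled as 6 to 8 weeks old, without saying at which point of the study, so time on the diet and age cannot be told apart. The treatment label of the mice titled 10 months reads 3 months, and the titles and the design text were followed.

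A miR is a short RNA that guides the silencing machinery to messenger RNAs, chiefly through its seed, bases 2 to 8 from the 5′ end. miR-1 and miR-133a are made from shared transcripts of paired genes, and they are known to act in opposite ways in muscle precursor cells, where miR-1 favours differentiation and miR-133a proliferation. miR-206 and miR-133b form a second pair, with miR-206 known as a miR of skeletal muscle. miR-208, miR-208b and miR-499 lie inside myosin heavy chain genes and are known from heart and slow muscle. The aortic wall itself is made of smooth muscle, and both miR-1 and miR-133a are also known as regulators of smooth muscle cells.

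The mature sequences show which members can be expected to share targets, and they bear on how far neighbouring assays can be told apart. They are from RefSeq on GRCm38.p6, matched by name for 5 of the 7 members, and are written 5′ to 3′ with the seed in capitals. The assay named miR-208 was matched to miR-208a-3p.
miR-206 (chr1:20679055-20679076, plus strand): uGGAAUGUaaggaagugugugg
miR-133b (chr1:20682834-20682855, plus strand): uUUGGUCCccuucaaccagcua
miR-208a (chr14:54949072-54949093, minus strand): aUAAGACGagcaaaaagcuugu
miR-208b (chr14:54975710-54975731, minus strand): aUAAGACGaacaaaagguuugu
miR-499 (chr2:155622893-155622913, plus strand): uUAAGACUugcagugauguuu

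The hairpins of miR-206 and miR-133b lie 3686 bases apart on the same strand, within the noncoding gene Lincmd1. miR-208a lies within Myh6, miR-208b within Myh7 and miR-499 within Myh7b, each a myosin heavy chain gene. miR-208a and miR-208b share their seed and differ at 3 of 22 bases, written as G10A, A16G and C18U with the miR-208a base first, counted from the 5′ end. The seed of miR-499 differs from that of miR-208a at its last base (G8U). miR-1 is known to share its seed with miR-206, and miR-133a is known to differ from miR-133b in the last base only. How much of a signal in one assay of such a pair comes from the other miR was not tested.

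Values below are threshold cycles, the PCR cycle at which an assay crosses its threshold. A later cycle means less template, and 40 stands for a well with no amplification. Wells at 35 cycles or later counted as not detected. A level is minus the cycle number, set against the average of the same array over the 285 miRs that every sample showed, on a log2 scale. Assays differ in efficiency, so levels are compared between mice and not between miRs. A summed level of a list treats its assays as equally efficient. It is likewise compared between mice only and does not give the share of each miR in the tissue.

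Each sample had 322 to 380 detected miRs, and the mean cycle of the 285 miRs ran from 23.2 to 25.3 in 10 samples. Replicate 2 of the 10-month group stood apart, with a mean cycle of 26.9 and the fewest detected miRs (322). Its small-RNA control assays were late as well, with U6 at 17.65 cycles against 11.05 to 14.93 in the other samples. The smooth muscle miRs miR-143 and miR-145 were detected in all 11 samples. A plant miR assay, for which these samples hold no target, gave no amplification in any well except 1, in the second assay block of control replicate 1 (33.98 cycles).

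Of the members, miR-1 differed most between groups. Its level was lower after 10 months of high fat diet than in every control and every 3-month mouse, at a size of about 4 times. It did not pass the test over all miRs. In control aortas miR-1 (assay name mmu-miR-1, for mouse) came up at 23.18, 23.99, 21.67 and 21.61 cycles (replicates 1 to 4), which are levels of 0.83, 1.31, 1.59 and 2.52. After 3 months the cycles were 22.32, 23.25, 22.04 and 22.34, and the levels 1.43, 0.55, 2.90 and 2.07. After 10 months the cycles were 23.84, 27.70 and 22.98, and the levels -0.35, -0.77 and 0.19. The 3-month mice spread across the whole control range and past both ends of it, whereas the highest 10-month level lay 0.64 below the lowest control and 0.36 below the lowest 3-month mouse.

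The mean miR-1 level of the 4 controls was 1.56 (SD 0.71). That of the 4 mice at 3 months was 1.74 (SD 1.00), and that of the 3 mice at 10 months -0.31 (SD 0.48). For 10 months against control the log2 fold was -1.87 (SE 0.57, 95% interval -3.15 to -0.60), a 3.67-fold lower level, with an unadjusted p of 0.00844 and a limma adjusted p of 0.0961. For 10 against 3 months it was -2.05 (SE 0.57, interval -3.33 to -0.77), 4.15-fold lower, with an unadjusted p of 0.00501 and a limma adjusted p of 0.161. For 3 months against control it was 0.18 (SE 0.53, interval -1.01 to 1.36, limma adjusted p = 0.940). The comparisons share samples: those at 3 and at 10 months use the same controls, and both with the 10-month group use the same 3 mice. By unadjusted p, miR-1 ranked 31 of 353 miRs at 10 months against control and 11 of 353 between 10 and 3 months.

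These ranks have to be read against how many miRs differed. At 10 months against control limma called 16 of 353 miRs (4.53%) at an adjusted p under 0.05 and 60 (17.0%) at an unadjusted one, and 33 (9.35%) were, like miR-1, lower in every mouse than in every control. Between 10 and 3 months 0 were called (0.0%), with 46 (13.0%) at an unadjusted p under 0.05, and 24 (6.8%) lay lower without overlap. At 3 months against control limma likewise called 0 (0.0%), with 30 (8.5%) at an unadjusted p under 0.05, and 9 (2.55%) lay lower without overlap. The 16 calls at 10 months depended on single mice: the count was 1 without control replicate 2, and 2 without control replicate 4 or without 10-month replicate 1, and 3 to 12 without any other single mouse. None of the 4 members tested was called in any comparison, and miR-1 was the 1 member with groups that did not overlap.

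**Figure D1:**
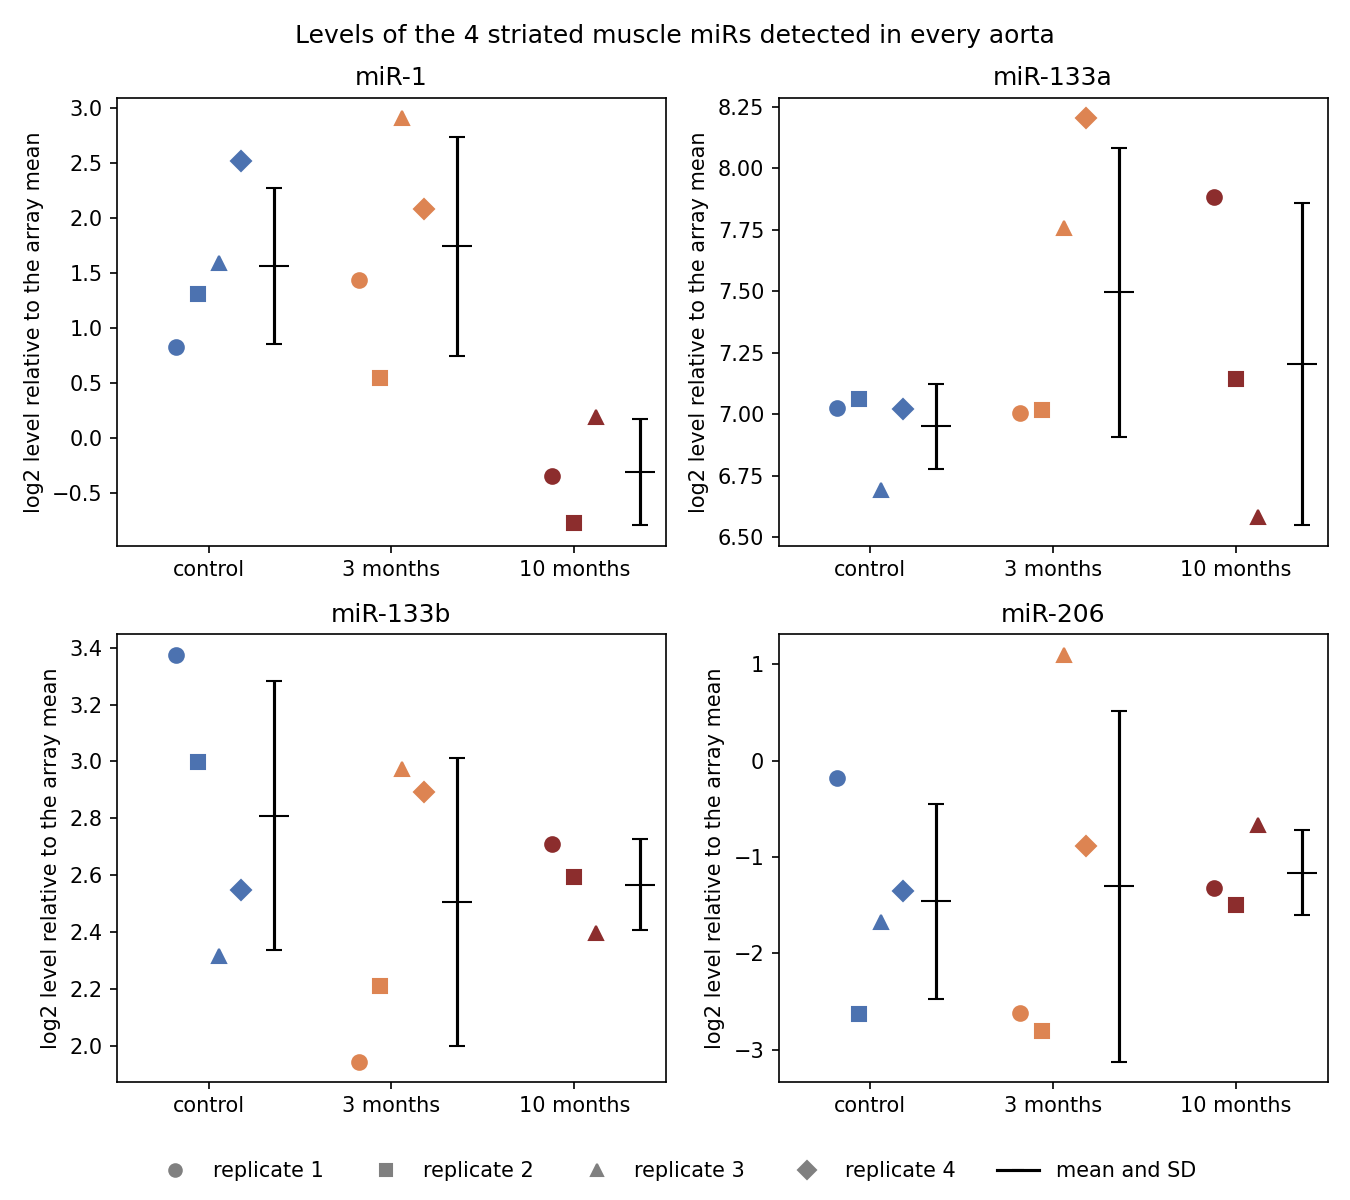
Log2 level relative to the array mean (vertical axis) of miR-1, miR-133a, miR-133b and miR-206 in each aorta, by group; symbols mark the replicate number and the black bar the mean with its SD. The 3 miR-1 levels at 10 months, -0.77 to 0.19, lie below all other samples, and the groups overlap in the other 3 panels.

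Without replicate 2 of the 10-month group, the sample with late cycles throughout, the log2 fold of miR-1 was -1.64 (SE 0.66, limma adjusted p = 0.285) against control and -1.82 (SE 0.66, limma adjusted p = 0.292) against 3 months. The reference moved the second of these: with U6 and 3 snoRNAs, the small-RNA control assays, in place of the array mean it was -1.22 (SE 0.55, limma adjusted p = 0.311). With that reference the whole set of miRs had a median fold of 0.89 in this comparison. After subtracting the median of the tested miRs, miR-1 lay at -1.88 against control (-1.88 to -1.70 over 6 scalings) and at -2.11 against 3 months (-2.11 to -1.96). Subtracting 1 value per array moves all folds alike. The array median, the control assays and no normalization therefore could not change these values. With only the 285 miRs detected in every sample in the test, miR-1 passed at 10 months against control at the same fold (limma adjusted p = 0.0458).

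**Figure D2:**
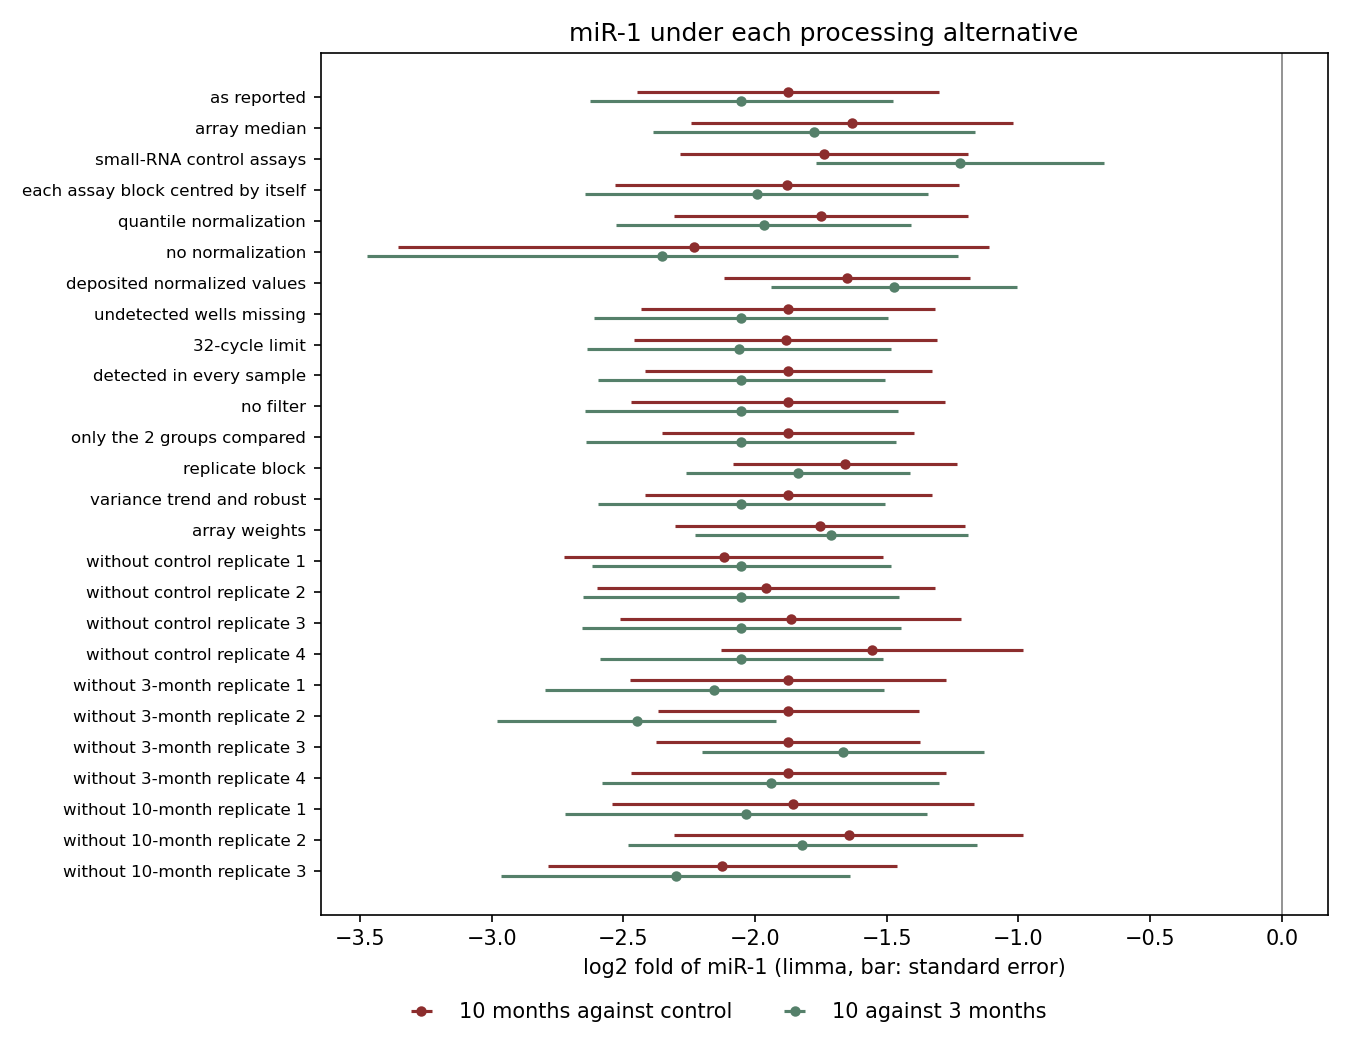
Log2 fold of miR-1 (horizontal axis, bar: standard error) at 10 months, set against control and against 3 months, as reported and under 25 alternatives in processing or samples (vertical axis). All points lie left of 0, from -2.23 to -1.56 against control and from -2.45 to -1.22 against 3 months. Alternatives that change only the filter, the variance model, undetected wells or mice outside the 2 groups compared keep the fold by construction.

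miR-133a, the partner of miR-1 on its shared transcripts, did not show the low level of miR-1 at 10 months. The mmu-miR-133a assay gave levels of 7.03, 7.06, 6.69 and 7.02 in control replicates 1 to 4. After 3 months they were 7.005, 7.02, 7.76 and 8.20, and after 10 months 7.88, 7.14 and 6.58. The controls lay close together except replicate 3, and the mice on the diet spread on both sides of them, with 2 of 4 at 3 months and 2 of 3 at 10 months above every control. The 4 controls had a mean of 6.95 (SD 0.17), the 4 mice at 3 months of 7.50 (SD 0.59) and the 3 mice at 10 months of 7.20 (SD 0.65).

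The log2 fold of miR-133a was 0.54 (SE 0.37, interval -0.28 to 1.37, limma adjusted p = 0.690) at 3 months and 0.25 (SE 0.40, interval -0.64 to 1.14, limma adjusted p = 0.863) at 10 months against control, and -0.29 (SE 0.40, limma adjusted p = 0.784) between 10 and 3 months. Both intervals against control reach past 1 on the log2 scale, so a doubling was not excluded.

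The cycle difference between 2 members within a sample needs no reference assay. miR-1 came up later than miR-133a by 6.20, 5.75, 5.10 and 4.50 cycles in controls, by 5.57, 6.47, 4.86 and 6.13 after 3 months and by 8.23, 7.92 and 6.39 after 10 months. The 10-month mice lay above every control, though replicate 3 (6.39) stood close to the highest of them (6.20) and fell within the range of the 3-month group. The mean difference was 5.39 cycles in the 4 controls (SD 0.74), 5.75 in the 4 mice at 3 months (SD 0.70) and 7.51 in the 3 mice at 10 months (SD 0.98).

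The difference of 2.13 cycles between 10 months and control had an exact two-sided permutation p of 0.0286, the smallest that 3 mice against 4 allow, and 0.171 after Benjamini-Hochberg adjustment over the 18 tests (6 pairs of members in 3 comparisons). The difference of 1.76 cycles between 10 and 3 months had an exact permutation p of 0.0571 (0.171 adjusted). With so few mice, 0.0286 is the smallest p that any of the 3 comparisons allows. A pair difference could pass the adjustment only if most of the 18 tests reached it. None passed, and the adjusted values therefore say little about the pairs.

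**Figure D3:**
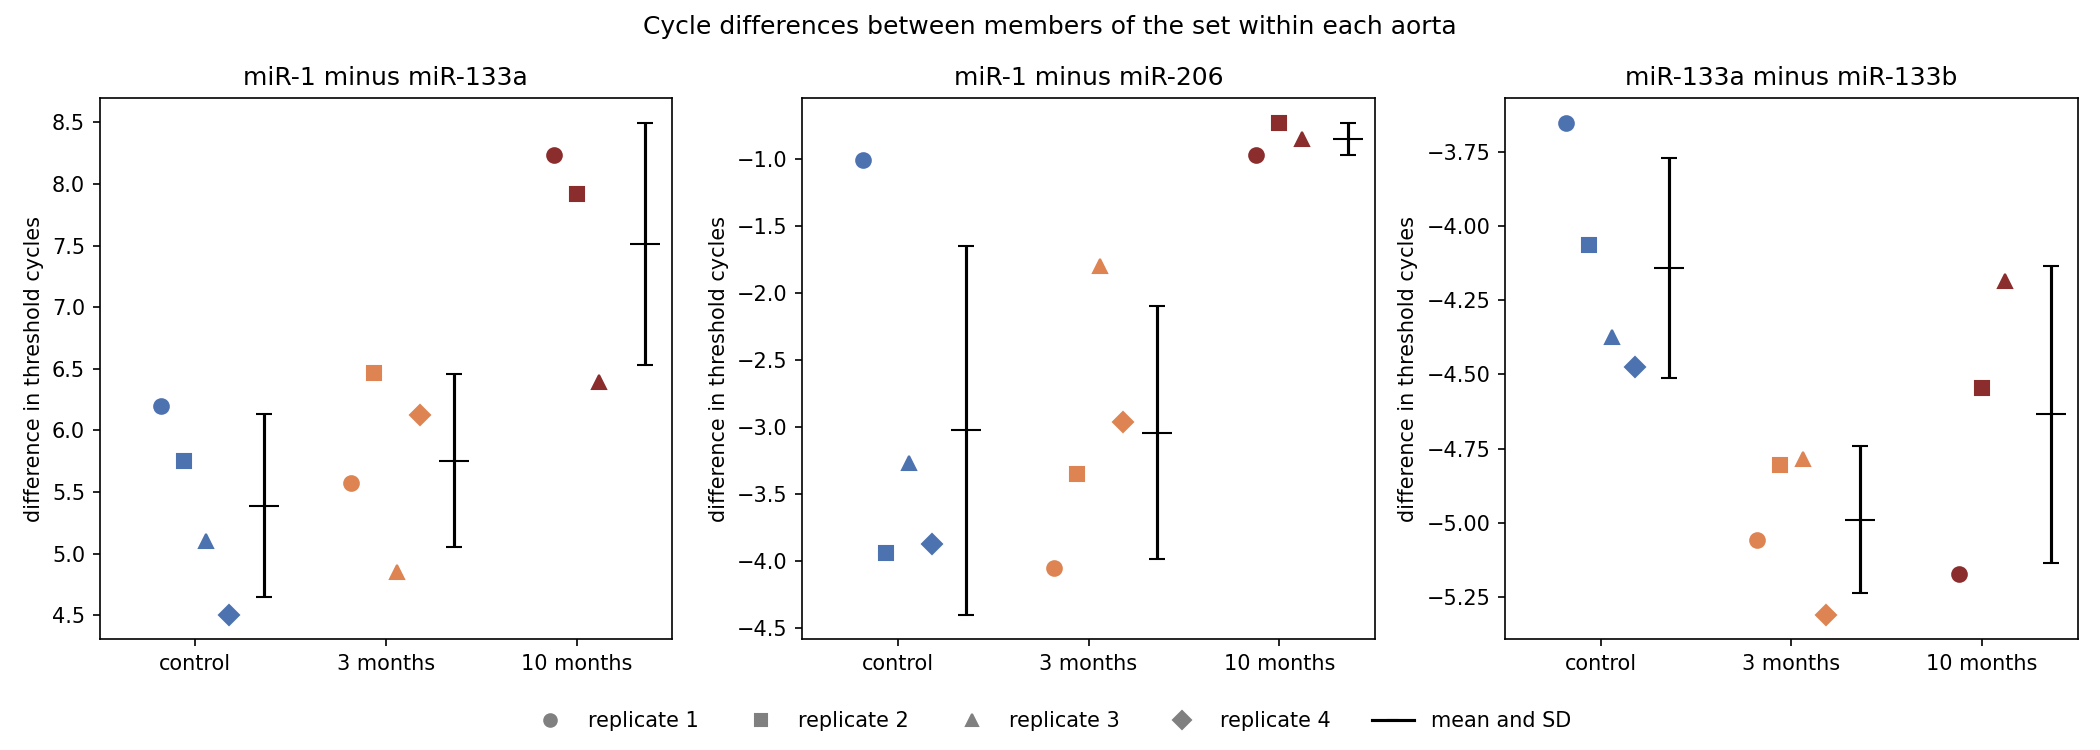
Difference in threshold cycles (vertical axis) between 2 members within each aorta, by group, with the mean and SD in black; a higher value means less of the first miR relative to the second. The miR-1 minus miR-133a difference is 6.39 to 8.23 at 10 months against 4.50 to 6.20 in controls, and the miR-133a minus miR-133b difference is -5.31 to -4.79 at 3 months against -4.47 to -3.65 in controls.

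miR-133b, almost identical to miR-133a but made from another locus (assay mmu-miR-133b), had levels of 3.38, 3.00, 2.32 and 2.55 in controls. They were 1.95, 2.21, 2.97 and 2.89 after 3 months, and 2.71, 2.60 and 2.40 after 10 months. The 10-month mice all fell inside the control range, and the 3-month mice were split into a lower and a higher pair. The log2 fold was -0.30 (SE 0.33, interval -1.05 to 0.44) at 3 months and -0.24 (SE 0.36, interval -1.05 to 0.56) at 10 months against control, both with a limma adjusted p of 0.842. Between 10 and 3 months it was 0.06 (SE 0.36, limma adjusted p = 0.967).

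The 133a and 133b assays lay farther apart in the 3-month mice than in the controls. The cycle of miR-133a minus that of miR-133b was -3.65, -4.06, -4.38 and -4.47 in controls and -5.06, -4.80, -4.78 and -5.31 after 3 months, with no overlap. After 10 months it was -5.17, -4.55 and -4.18, which reaches from the control range to the 3-month range. The difference between 3 months and control was -0.85 cycles (exact two-sided permutation p = 0.0286, the smallest possible, 0.171 adjusted over the 18 tests), and between 10 months and control -0.49 (exact permutation p = 0.229).

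miR-206, the skeletal muscle member and neighbour of miR-133b, had the largest SD of the 4 tested members in the control and 3-month groups, though not at 10 months. Its levels were -0.18, -2.63, -1.68 and -1.36 in controls. After 3 months they were -2.62, -2.81, 1.10 and -0.89, and after 10 months -1.32, -1.50 and -0.66. The 3-month group held both the highest and the lowest level of all 11 aortas, and all 10-month mice lay within the range of the controls. The SD was 1.01 (n = 4) in controls, 1.82 (n = 4) after 3 months and 0.44 (n = 3) after 10 months. The log2 fold was 0.16 (SE 0.84, interval -1.70 to 2.02) at 3 months and 0.30 (SE 0.90, interval -1.71 to 2.31) at 10 months against control, with limma adjusted p of 0.959 and 0.931. Between 10 and 3 months it was 0.14 (SE 0.90, limma adjusted p = 0.973). A difference of 3 times in either direction lay within all 3 intervals and was not excluded.

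miR-1 and miR-206 are known to share their seed, and their cycles lay closest at 10 months. The cycle of miR-1 minus that of miR-206 was -1.01, -3.94, -3.27 and -3.87 in controls and -4.06, -3.35, -1.80 and -2.96 after 3 months. After 10 months it was -0.97, -0.73 and -0.85. No 10-month mouse overlapped another group, though control replicate 1 (-1.01) came close to them. Of the 4 tested members, miR-206 alone was in the second assay block. An offset between blocks would enter its cycle differences with the other members, and its part in them was not tested. The difference against control was 2.17 cycles and against 3 months 2.19 cycles, each with an exact two-sided permutation p of 0.0571 (0.171 adjusted over the 18 tests). Against miR-133b, miR-1 was later by 1.63 cycles at 10 months than in control (exact permutation p = 0.114) and by 2.11 cycles at 10 than at 3 months (exact permutation p = 0.0286, 0.171 adjusted).

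**Figure D4:**
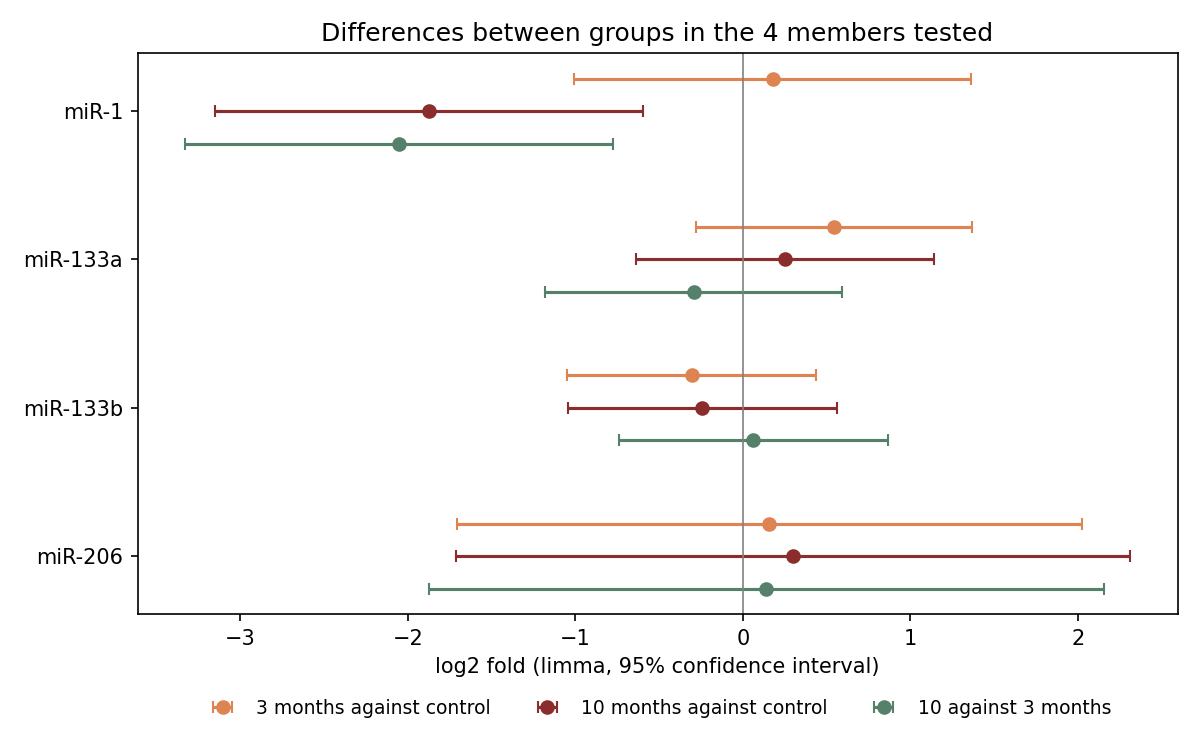
Log2 fold with its 95% confidence interval (horizontal axis) for the 4 members tested (vertical axis) in each of the 3 comparisons. Both 10-month intervals of miR-1 lie below 0 before adjustment over all miRs, and all other intervals include 0, the widest being those of miR-206.

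The members inside myosin genes were detected in few aortas, and none passed the filter on low values (a signal before 35 cycles in 3 or more mice of some group), so none was tested. miR-208, known as a miR of heart muscle, came up at 31.38 cycles in control replicate 1, 30.96 in control replicate 3, 28.34 in 10-month replicate 1 and 28.37 in 10-month replicate 3. It was not detected in the other 2 controls, in any of the 4 mice at 3 months, or in 10-month replicate 2. The levels where detected were -7.37 and -7.70 in controls and -4.85 and -5.20 after 10 months. A well at 35 cycles would stand at -10.1 to -11.2 in the 3-month samples. In control replicates 2 and 4, also without a signal, that limit was -9.70 and -10.9. Relative to the array mean, the wells without a signal in both groups therefore read below every level detected. Each of these readings rests on a single well. For 10-month replicate 2, whose cycles were late throughout, that limit was -8.08, close to the lower of the controls with a signal.

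The 2 mice with the highest miR-208, 10-month replicates 1 and 3, held miR-1 at -0.35 and 0.19, under every control. Their miR-133a levels were the highest (7.88) and the lowest (6.58) of the 10-month group. In 10-month replicate 2, without a miR-208 signal, miR-1 was also under every control, at -0.77. With detection in 2 of 4, 0 of 4 and 2 of 3 mice, no difference in miR-208 between groups can be given.

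miR-208b, which shares the miR-208a seed, was detected in 1 mouse of each group: control replicate 1 (32.57 cycles, level -8.57), 3-month replicate 4 (34.22 cycles, level -9.80) and 10-month replicate 3 (31.97 cycles, level -8.80). miR-499 was detected in 1 of 11 samples, control replicate 1, at 31.98 cycles (level -7.97). That sample had the most detected miRs (380) and is the one in which the plant assay amplified. Whether this bears on its late signals was not tested. The passenger strand of miR-133a, miR-133a*, was detected in 4 samples at 31.11 to 33.72 cycles, namely control replicate 1, 3-month replicate 3 and 10-month replicates 1 and 3.

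**Figure D5:**
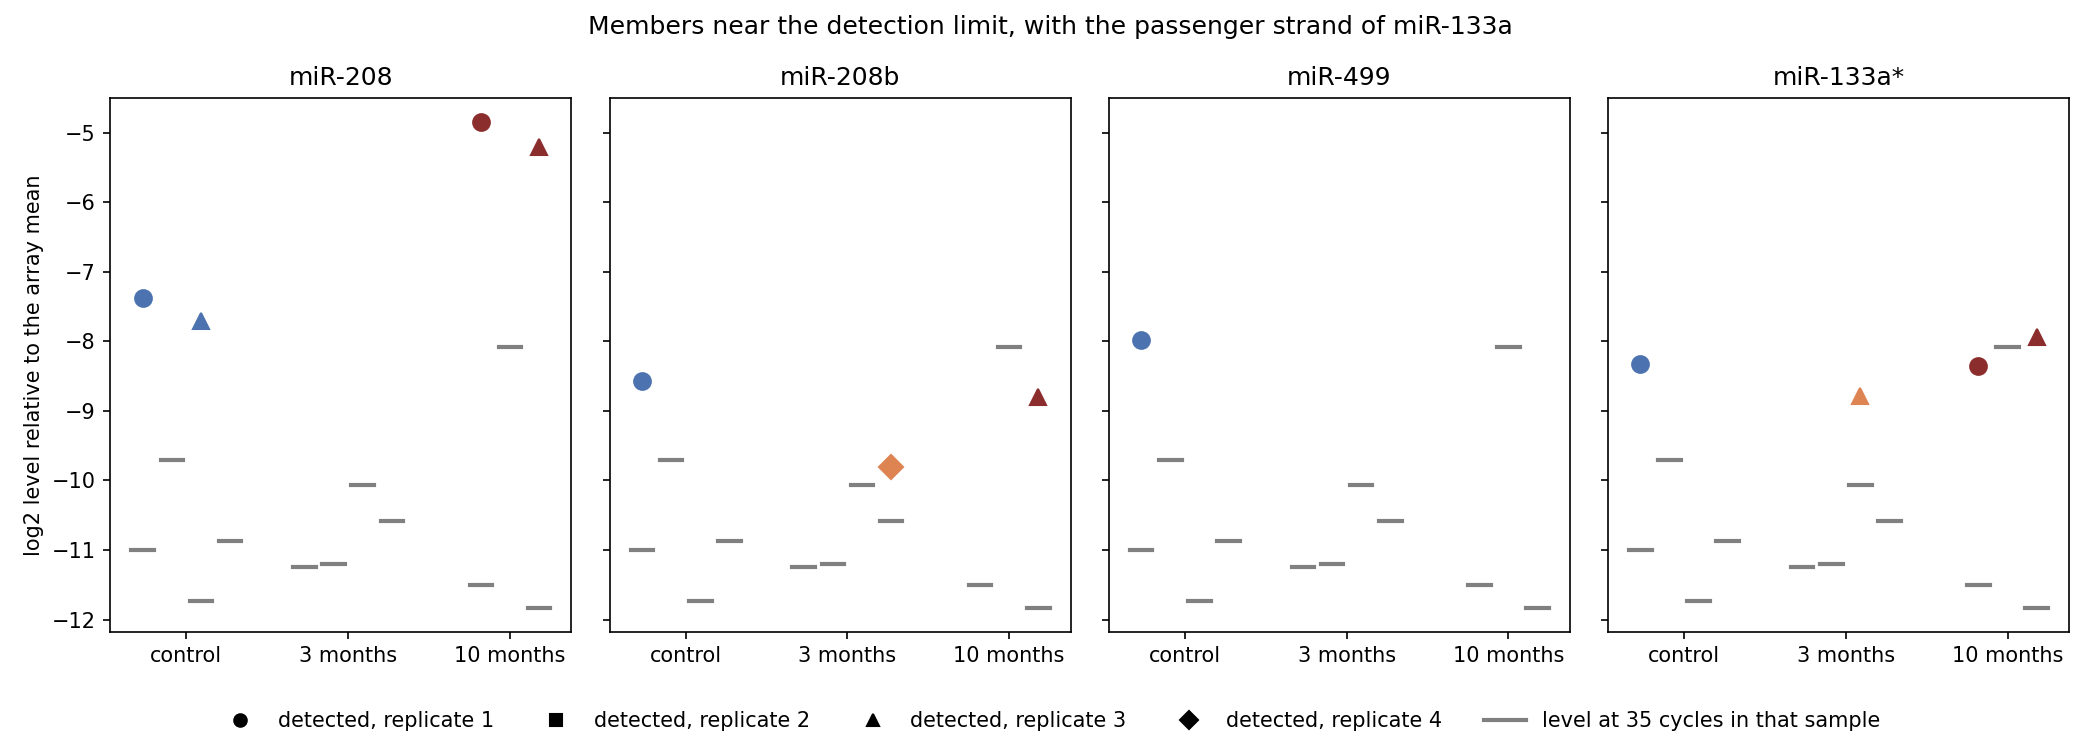
Log2 level relative to the array mean (vertical axis) of miR-208, miR-208b, miR-499 and miR-133a* in the samples where each was detected, by group; grey bars mark the level that 35 cycles stands for in each sample. miR-208 is at -4.85 and -5.20 in 2 of 3 mice at 10 months, -7.37 and -7.70 in 2 of 4 controls and undetected in all 4 mice at 3 months.

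Across the 11 aortas the Pearson r of the miR-1 level was 0.206 with miR-133a, 0.134 with miR-133b and 0.303 with miR-206, at ranks 94, 108 and 74 of the 284 other miRs detected everywhere. Without the 2 samples farthest from the median miR-1 level, r with miR-133a was 0.618. The closest pair within the set was miR-133b with miR-206 (r = 0.583), followed by miR-133a with miR-133b (r = 0.411). Without the 2 samples farthest from the median miR-133b level this order turned, with r at 0.396 for miR-206 and 0.668 for miR-133a. These values describe 11 samples that differ in group and were centred in the same way.

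The miRs most like miR-1 were miR-485* (r = 0.879), let-7e (0.875), miR-376b* (0.825), miR-494 (0.786) and miR-26a (0.785). Without the 2 samples farthest from the median miR-1 level these were 0.731, 0.856, 0.605, 0.579 and 0.587. For miR-133a they were miR-425 (r = 0.813), miR-191, miR-186, miR-125b-3p and miR-547 (0.751), all in the same assay block as miR-133a. For miR-133b they were miR-872* (0.834), miR-28*, miR-330*, miR-27b* and miR-24-1* (0.725), and for miR-206 miR-877 (0.849), miR-20a*, miR-709, miR-676* and miR-193* (0.648). All 5 nearest to miR-206 were in its own assay block, and all 5 nearest to miR-133b were in the other block. Whether assay blocks play a part in these values was not tested.

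Other miRs linked to muscle give the setting for the members. The smooth muscle miRs, which mark the main cell of the aortic wall, had 3 tested assays, of which 0 rose and 0 fell in any comparison by limma (0 at an unadjusted p under 0.05). At 10 months against control, miR-143 stood at -0.10 (SE 0.29), miR-145 at -0.14 (SE 0.46) and its passenger strand miR-145* at 0.18 (SE 0.56) in log2 fold. In the comparison of 10 with 3 months, where the miR-1 difference was larger, miR-143 stood at -0.49 (SE 0.29, limma adjusted p = 0.497) and lay lower in every 10-month mouse than in every 3-month mouse. miR-145 stood at -0.52 (SE 0.46) and miR-145* at 0.36 (SE 0.56), and the median of the list was -0.49 against 0.06 over all miRs. Their summed level ran from 11.7 to 12.9 in controls, from 12.1 to 12.9 after 3 months and from 11.4 to 12.9 after 10 months. In this sum the miR-145 assay weighed most (mean level 12.06 in controls, against 7.75 for miR-143), so it says little of miR-143. The part of this sum in the miR-1 levels was not tested. In these whole tissue samples, fewer muscle cells and less of a miR per muscle cell cannot be told apart.

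A list of miRs with reported roles in skeletal or heart muscle that are not specific to it had 19 tested members, of which 0 rose and 0 fell at 10 months or at 3 months against control, and likewise between 10 and 3 months by limma (2, 0 and 1 at an unadjusted p under 0.05). Over all 353 miRs the shares at an unadjusted p under 0.05 were 17.0%, 8.5% and 13.0% in the same order. The median log2 fold of the list at 10 months was 0.27, against 0.00 over all 353 miRs. The smallest p values belonged to miR-29a, which represses collagen genes (log2 fold 0.87, SE 0.29, limma adjusted p = 0.126), and miR-26a, which acts in muscle differentiation (-0.75, SE 0.31, limma adjusted p = 0.245). They were followed by miR-222 (1.33, SE 0.63) and miR-378 (0.92, SE 0.51). miR-26a was also among the 5 miRs most like miR-1, and its 10-month levels lay under every control.

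Brown fat lies around the mouse aorta and shares part of its miR makeup with muscle, so its miRs were set beside the members. Of 8 tested, 1 rose and 0 fell at 10 months against control, beside 16 of 353 miRs (4.53%) called in all. The 1 that rose was miR-193, at -2.80 in the 4 controls (SD 0.54) and -1.14 in the 3 mice at 10 months (SD 0.35). That was 1.66 higher (SE 0.41, limma adjusted p = 0.0489). This call did not hold in several alternatives, in which limma called 0 miRs as higher: the small-RNA control assays, the deposited values, no normalization, no filter, only both groups in the model and the replicate block. The same was so without control replicate 2, without control replicate 4 and without 10-month replicate 1. The next by p were miR-182 (1.12, SE 0.42, limma adjusted p = 0.178), miR-378 (0.92) and miR-193b (0.49, SE 0.47). The median of the list was 0.52, against 0.00 over all miRs, with 7 positive folds of 8. The share of positive folds over all miRs was not counted. Its summed level ran from 8.29 to 9.21 in controls, 8.68 to 9.02 after 3 months and 8.38 to 10.2 after 10 months. In this sum the miR-193b assay weighed most (mean level 8.22 in controls), and all 8 assays were detected in every sample. The part of this sum in the miR-1 levels was not tested.

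Of 16 tested markers of other cells, limma called 0 in any comparison, with 2 at an unadjusted p under 0.05 at 10 months against control. In each other comparison the 1 such marker was blood-lineage miR-142-3p. Its log2 fold was -1.37 (SE 0.38, limma adjusted p = 0.339) at 3 months against control, among the 9 of 353 miRs (2.55%) lower without overlap. Between 10 and 3 months it was 1.22 (SE 0.41, limma adjusted p = 0.243), again without overlap. All 5 blood-lineage miRs had positive folds between 10 and 3 months (median 0.85). At 10 months against control the median log2 fold was 0.62 for 2 endothelial miRs, 0.62 for 5 blood-lineage miRs, -0.05 for 3 neural miRs and -0.02 for 5 epithelial miRs. The liver miR, miR-122, stood at 1.21. The neural median covers 1 marker far from it, named here after its values were seen: miR-129-3p stood at 3.61 (SE 0.98, unadjusted p = 0.00405, limma adjusted p = 0.0715) and lay higher in every 10-month mouse than in every control. Its mean level was -2.43 in the 4 controls (SD 1.98) and 1.18 in the 3 mice at 10 months (SD 0.82). The other neural markers, miR-9 and miR-218, both stood at -0.05. The other marker with an unadjusted p under 0.05 at 10 months against control was endothelial miR-126-3p. It stood at 1.03 (SE 0.36, limma adjusted p = 0.139), also higher in every 10-month mouse than in every control. How many of all miRs lay higher without overlap was not counted in any comparison. No share can therefore be set beside the markers that did. The summed blood-lineage level ran from 6.34 to 7.23 in controls and from 6.47 to 8.16 after 10 months, and the endothelial level from 8.37 to 8.84 and from 8.90 to 10.0. Both sums thus reached higher at 10 months, though their markers did not all follow. Endothelial miR-126-5p stood at 0.20 (SE 0.25) against control, with overlap, and the miR-126-3p assay weighed most in the endothelial sum. Of the 5 blood-lineage miRs, 3 had positive folds and 2 negative ones (miR-142-3p at -0.14, miR-451 at -0.42). The part of these sums in the miR-1 levels was not tested.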

How the data were processed

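miR levels in total aortic RNA (mirVana kit, per the labels) were measured by PCR. The authors deposited a table of threshold cycles, not normalized (a log2 scale read backwards), and a second log2 table whose values equal the cycle minus the mean of snoRNA202 and snoRNA429. That relation was found from the values of both tables. For the instrument and its software, the sources used here give no name.

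Cycles at or past 35 were set to 35, signs were turned, and the average of the 285 miRs seen in all 11 samples was subtracted within each array. The 353 miRs with a signal before 35 cycles in 3 or more mice of some group entered 1 model of all 3 groups (limma 3.58.1 in R 4.3.3), with two-sided tests and Benjamini-Hochberg adjustment over all 353. The test was checked on simulated data. Cycle differences between members were compared by exact permutation of the samples (Python 3.11.15), counting splits with an absolute difference at least as large. Folds assume a doubling per cycle. The labels give 1 mouse for each array, so the number of mice limits the precision.

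The members, the lists (smooth muscle, muscle-linked roles, brown adipose and the cell markers) and the alternatives were chosen with earlier results of these data known. The named miRs are the members, up to 4 per muscle or brown fat list with the smallest p at 10 months against control, and the 5 most like each member. Assays of miR-143*, miR-181b and miR-196a were not analysed here.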

Additional observations from a re-analysis of the deposited data

Results flagged for a closer look

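Among the 4 tested members and their 6 cycle differences, 20 groups of 4 samples were examined for a sample far from the others, and chance alone picks out about 1 in 20. The miR-133a level of control replicate 3 (6.69) stood apart from the other 3 controls (7.02 to 7.06).

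The passenger strand of miR-133a lies outside the comparisons. In 10-month replicate 3 its level was -7.94, above the 1 control in which it was detected (-8.33). In 10-month replicate 1 its level was -8.35, below that control, and in 10-month replicate 2 it was not detected.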

How the results depend on the processing

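Each value was recomputed under up to 14 other settings and with each mouse left out, 525 alternatives in all. Of these, 459 kept direction and side of the threshold (a count stayed within 1.5 times). Another 40 turned direction, 1 newly passed and 25 were counts that moved. The causes of the changes were not tested. The 459 include alternatives that could not change a value, so they do not measure stability. Changing only the filter, the variance model, undetected wells or mice outside the groups compared keeps a member's fold by construction, though not its adjusted p. A limit of 32 cycles could not change a cycle difference. Testing only the 285 miRs detected in every sample lowered some adjusted p values and raised others. For miR-133a at 3 months against control the limma adjusted p went from 0.690 to 0.726. The miR-1 log2 fold stayed negative at 10 months against control (-2.23 to -1.56, limma adjusted p 0.0458 to 0.996) and against 3 months (-2.45 to -1.22, limma adjusted p 0.0905 to 0.999). The lowest p against control came from testing the 285 miRs detected in every sample (0.0458 at a fold of -1.87), the 1 alternative in which it passed.

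Of 353 miRs, 16 were called at 10 months against control. The count was 0 with small-RNA control assays, 0 with no normalization, 0 with the deposited normalized values and 0 with only the 2 groups compared, 1 with no filter, 29 with miRs detected in every sample and 25 with array weights. Centring on the array median gave 8 higher and 8 lower in place of 3 and 13. Between 10 and 3 months (0 called) the count was 5 with each assay block centred by itself, 4 with quantile normalization, 1 with the deposited values, 1 with a variance trend and robust fit and 10 with array weights. With 1 mouse left out the counts ran from 0 to 1 at 3 months, from 1 to 12 at 10 months and from 0 to 0 between them.

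At 3 months against control, small-RNA control assays turned the log2 fold of miR-1 to -0.52, of miR-133a to -0.15 and of miR-206 to -0.53. The deposited values turned miR-1 to -0.18 and miR-206 to -0.20, and array weights turned them to -0.043 and -0.60. At 10 months against control miR-133a was at -0.061 with quantile normalization and -0.11 with none, miR-206 at -0.058 with none, and miR-133b at 0.0002 with the array median. Between 10 and 3 months miR-133a was at 0.54 with control assays, 0.29 with the deposited values and 0.13 with array weights, and with no normalization miR-133b was at -0.24 and miR-206 at -0.16.

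With 1 mouse left out, the 3-month fold ran from -0.21 to 0.57 for miR-1 and from -0.64 to 0.66 for miR-206. The 10-month fold ran from -0.089 to 0.56 for miR-133a and from -0.090 to 0.73 for miR-206. Between 10 and 3 months it ran from -0.63 to 0.018 for miR-133a, from -0.12 to 0.22 for miR-133b and from -0.36 to 0.94 for miR-206. Cycle differences that turned were miR-1 minus miR-206 at 3 months (-0.43 to 0.65), miR-133a minus miR-206 at 3 months (-1.10 to 0.017), at 10 months (-0.51 to 0.47) and between them (-0.13 to 1.15), and miR-133b minus miR-206 at 3 months (-0.18 to 0.87) and between 10 and 3 months (-0.32 to 0.72). A limit of 32 cycles could move no cycle difference, because the tested members came up earlier than that in every sample.

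Whether replicate numbers pair the mice was not settled. Between 3 months and control, same-numbered deviations correlated at 0.033 to 0.331, and each mouse correlated best with its own number. Between 10 months and control they correlated at -0.356 to 0.469, and only replicate 2 was best with its own number. With a replicate block in the model, the SE of miR-1 at 3 months against control was 0.38 in place of 0.53. For miR-206 it was 0.78 in place of 0.84, for miR-133a 0.38 in place of 0.37 and for miR-133b 0.38 in place of 0.33. With the replicate block 6 miRs were called at 10 months, and miR-1 stood at -1.66 against control (limma adjusted p = 0.0779) and -1.84 against 3 months (limma adjusted p = 0.122).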
